A study of Mus musculus with 32 samples.

Results

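The genes of the cytosolic ribosomal proteins were examined in profiles of RNA polymerase II (Pol II) over mouse genes. They were taken by symbol, as the Rpl and Rps genes with Rplp0, Rplp1, Rplp2, Rpsa and the copy Rps27rt, without the Rps6 kinases. This gave 87 of the 27179 genes measured. Of these, 43 encode large subunit proteins, 31 small subunit proteins and 3 the stalk, and 10 are paralogs or copies of another member. The rule goes by symbol and uses no measured value. The tissues were brain, heart, kidney and liver of mice. In the FFPE group organs were fixed in 10% formalin and embedded in paraffin, and sections were later freed of paraffin and heated to 95 °C for 20 min in extraction buffer. In the frozen group organs were flash frozen, and cores were held in 1% formaldehyde for 30 min and then sheared. Pol II was pulled down in both groups by an antibody to its C-terminal domain. Preservation and extraction therefore differ together and cannot be told apart. The labels list 2 Pol II libraries for each organ and preservation, but the table has 1 column for each, called a profile here, so each group holds 4 profiles, 1 from each organ. Whether a profile is 1 library or both combined, and whether profiles come from separate animals, was not given in the sources used here, so p-values measure only the spread between these profiles. Strain, age and sex were not given either.

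Cytosolic ribosomes translate the mRNAs of the nuclear genome, and their proteins are made in nearly equal amounts in every cell. Their genes are short, strongly transcribed and often start within a run of pyrimidines, the terminal oligopyrimidine (TOP) motif, through which the translation of their mRNAs is tied to growth signals. Many of them carry small nucleolar RNAs in their introns. A few paralogs are restricted to tissues, such as Rpl3l in heart and skeletal muscle and Rpl10l in testis.

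RefSeq promoter windows of build GRCm38.p6, which run from 250 bases before to 50 after an annotated start, were matched for 65 of the 87 genes. A run of at least 8 pyrimidines (C or T, coding strand) that began within 10 bases of the start was present in 22 of the 65 genes (33.8%), against 10.7% of all 27025 genes with a window. Searched on both strands, GGGCGG was present in 60.0% of the 65 genes and 38.2% of all genes, CCGGAAG in 40.0% and 9.93%, and ATGGCGG in 16.9% and 4.69%. TATAAA was present in 12.3% of the ribosomal protein genes and 15.7% of all genes, and CACGTG in 9.23% and 8.09%. The windows below run from 80 bases before to 20 after the start, and the pyrimidine run and the motifs are in capitals, where adjoining matches merge. Rpl41 was among the 5 genes whose FFPE profiles all lay below the frozen ones. Rpl22l1, the paralog of Rpl22, was another of the 5. Rplp2 encodes a stalk protein, and Rpl3l is the muscle paralog with the highest value in frozen heart. Rps27 and its copy Rps27rt are shown together because the bases after their starts match.
Rpl41 (chr10:128549149-128549248, minus strand): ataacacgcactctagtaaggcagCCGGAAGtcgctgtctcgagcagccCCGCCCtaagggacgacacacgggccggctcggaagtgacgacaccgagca
Rpl22l1 (chr3:28805428-28805527, plus strand): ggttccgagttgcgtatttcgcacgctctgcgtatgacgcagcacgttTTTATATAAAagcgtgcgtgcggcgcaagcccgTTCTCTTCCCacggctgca
Rplp2 (chr7:141447571-141447670, plus strand): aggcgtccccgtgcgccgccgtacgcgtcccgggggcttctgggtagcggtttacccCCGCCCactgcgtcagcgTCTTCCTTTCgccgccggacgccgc
Rpl3l (chr17:24727746-24727845, plus strand): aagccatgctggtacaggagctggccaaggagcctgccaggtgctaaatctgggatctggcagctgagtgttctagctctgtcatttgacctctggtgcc
Rps27 (chr3:90213629-90213728, minus strand): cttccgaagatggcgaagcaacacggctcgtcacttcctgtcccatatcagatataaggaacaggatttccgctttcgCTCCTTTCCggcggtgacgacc
Rps27rt (chr9:114982720-114982819, minus strand): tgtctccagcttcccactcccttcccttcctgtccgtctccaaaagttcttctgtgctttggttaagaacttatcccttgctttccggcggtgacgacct
The Rps27 and Rps27rt windows share an unbroken run of 38 bases that begins at the annotated start of Rps27rt and 1 base after that of Rps27. Before the start, 26.4% of their bases are identical at the same position. In Rpl22l1 TATAAA and its reverse overlap, and the pyrimidine run begins just after the start. Rpl3l has a second annotated start, not shown, and neither of its windows held the pyrimidine run.

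The profiles held between 864816 (FFPE liver) and 2178329 (frozen liver) reads in genes. Mitochondrial genes took between 7.73% (both brain profiles) and 25.6% (FFPE heart) of them. Defining markers followed the labels: 6 of 6 neuronal genes were higher in brain, 6 of 6 cardiomyocyte genes in heart, 5 of 6 proximal tubule genes in kidney and 6 of 6 hepatocyte genes in liver (limma, adjusted p under 0.05). The markers' share of all reads was lower in the FFPE profile of each organ. Hepatocyte genes took 0.151% of reads in FFPE liver and 0.708% in frozen liver, cardiomyocyte genes 0.681% in FFPE heart and 1.33% in frozen heart, and proximal tubule genes 0.104% in FFPE kidney and 0.162% in frozen kidney. Neuronal genes took 0.0660% in FFPE brain and 0.0709% in frozen brain. Reads of 5 erythroid markers summed to between 21 and 78 in a profile, of 6 immune markers to between 110 and 274 and of 6 skeletal muscle markers to between 119 and 517.

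The ribosomal protein genes stood highest in frozen liver and frozen heart, and the FFPE profiles of the 4 organs were close to each other. On the deposited log2 scale (depth-scaled reads, with 0.5 reads added), the median of the 87 genes was 4.61 in FFPE brain, 5.00 in FFPE heart, 4.84 in FFPE kidney and 4.66 in FFPE liver. It was 4.90 in frozen brain, 5.44 in frozen heart, 4.78 in frozen kidney and 5.64 in frozen liver. The median of all genes tested lay between 4.28 and 4.40 in every profile. From the lowest to the highest, the medians of the 87 genes thus ran from FFPE brain through FFPE liver, frozen kidney, FFPE kidney, frozen brain and FFPE heart to frozen heart and frozen liver. With 1 profile for each organ and preservation, no spread can be put on any single step of this order.

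**Figure D1:**
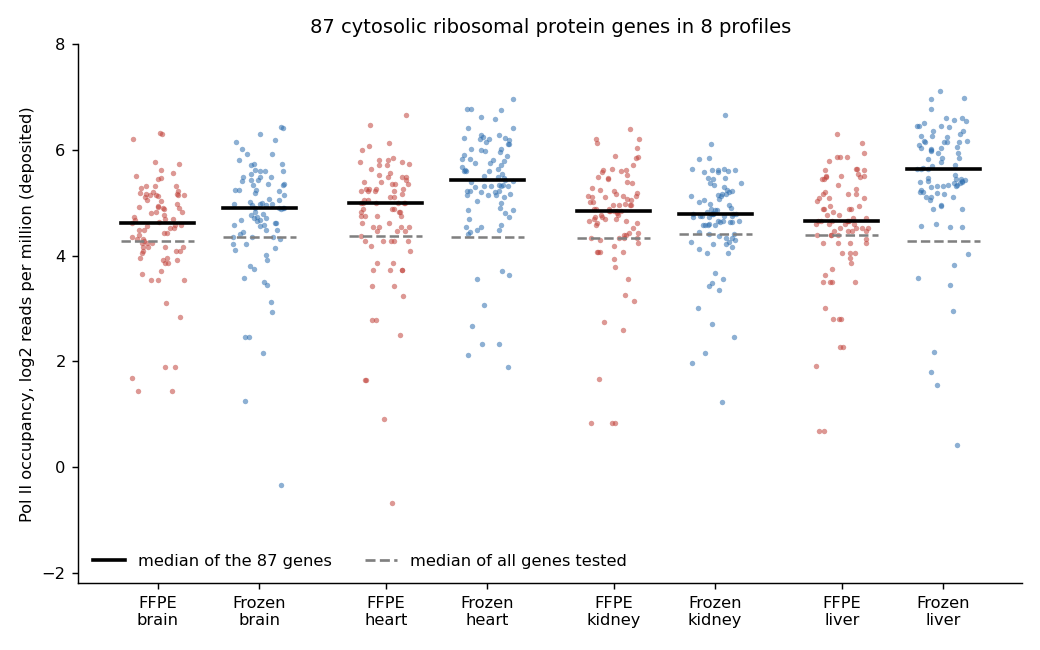
Deposited log2 value (y axis) of each of the 87 ribosomal protein genes (points) in the 8 profiles (x axis), FFPE in red left of frozen in blue for each organ. Black bars are medians of the 87 genes, at 5.44 in frozen heart and 5.64 in frozen liver and between 4.61 and 5.00 elsewhere, and dashed grey bars are medians of all genes tested.

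The reads of the 87 genes summed to 4716 in FFPE brain, 2186 in FFPE heart, 3777 in FFPE kidney and 2262 in FFPE liver. They summed to 5355 in frozen brain, 6151 in frozen heart, 4865 in frozen kidney and 8678 in frozen liver. As a share of all reads, FFPE profiles gave 0.259% in brain (95% exact binomial interval 0.252% to 0.267%, counting error only), 0.237% in heart (0.227% to 0.247%), 0.259% in kidney and 0.262% in liver. The share was 0.311% in frozen brain, 0.389% in frozen heart, 0.283% in frozen kidney and 0.398% in frozen liver. The share was lower in the FFPE profile of every organ. With mitochondrial reads left out, FFPE and frozen shares were 0.281% and 0.337% in brain, 0.318% and 0.441% in heart and 0.297% and 0.443% in liver. In kidney, where mitochondrial genes took 19.2% of reads in FFPE and 7.77% in frozen tissue, the order turned, with 0.320% in FFPE and 0.307% in frozen kidney.

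Levels of different genes were compared per kilobase of the annotated span, since the table of gene positions gives no exon length. The median of the 87 genes was between 7.53 (FFPE brain) and 15.7 (frozen liver) RPKM (reads per kilobase, scaled by depth), against 1.33 to 1.51 for all genes tested. Per kilobase, 81 of the 87 were above the median of all genes in every profile. On the deposited log2 scale, which is not corrected for length, 37 of the 87 were. The span of the ribosomal protein genes is short (median 3164 bases, against 14703 for all genes tested), and across 25009 genes with reads and a span, Spearman's rho of the span was 0.58 with the mean log2 level and -0.75 with the level per kilobase, a description across genes that share the 8 profiles. The highest per-length levels belonged to Rpl41, which encodes a very short basic protein of the large subunit, with a mean of 54.7 RPKM over the 8 profiles, and to Rps27 (53.3), Rps21 (44.4), Rps29 (29.7) and the stalk gene Rplp1 (26.1); their spans lie between 982 and 1465 bases. Among the lowest were the paralog Rpl39l at 1.09, and the X-linked Rpl39 and Rps4x at 2.40 and 2.41.

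FFPE against frozen tissue asks what fixation and extraction do to the signal. Across the 4 organs the ribosomal protein genes lay lower in FFPE than in frozen tissue, but no single gene passed the test. The median fold change was -0.42 (log2), against -0.01 over all genes tested. The fold change was below 0 in 80 of 87 genes, against 51.1% of all genes tested. With limma (organ as a block, Benjamini-Hochberg adjusted p under 0.05 over 26758 genes), 0 of the 87 were called, where 0.576% of all genes were called. At an unadjusted p under 0.05 there were 20, all lower in FFPE, where 5.53% of all genes were lower at that p. With voom weights limma called 2, Rpl10 and Rpl41, both lower in FFPE (1.18% of all genes), and without FFPE kidney or without frozen kidney it called 1, Rpl41 (adjusted p = 0.029 in both), where 0.318% and 0.356% of all genes were called. Of the 87 genes, 23 (26.4%) were lower in FFPE in all 4 organs, where 8.45% of all genes were. In 5 (5.75%), every FFPE profile was below every frozen one, where 1.33% of all genes did so.

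Those 5 genes were Rpl10, Rpl41, Rpl19, Rpl22l1 and Rpl28, the last named after its values were seen. Rpl10, an X-linked gene for a protein near the peptidyl transferase centre, had log2 values of 4.42, 4.88, 4.29 and 4.59 in FFPE brain, heart, kidney and liver, against 5.33, 6.02, 5.12 and 5.97 in frozen brain, heart, kidney and liver. All 4 FFPE values were below 5 and all 4 frozen values above it, and the fold change was -1.06 ± 0.25 (SE, 4 against 4 profiles; adjusted p = 0.052). Rpl41 had 5.14, 5.26, 5.52 and 4.88 in the FFPE profiles in the same order, against 6.01, 6.76, 5.64 and 6.56 in the frozen profiles. Its groups were closest in kidney, where the read ratio of FFPE to frozen was 0.916 (95% exact interval 0.656 to 1.27, counting error only), and farthest apart in liver, where it was 0.307 (0.197 to 0.462). The fold change of Rpl41 was -1.04 ± 0.25 (adjusted p = 0.053).

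Rpl19, whose protein reaches across to the small subunit, had 5.10, 4.37, 4.77 and 4.72 in FFPE brain, heart, kidney and liver, against 5.80, 5.88, 5.16 and 6.0 in the frozen profiles (fold change -0.97 ± 0.25, adjusted p = 0.093). Part of Rpl19 overlaps Cacnb1 in the annotation, and without a stated counting strand the reads of both cannot be separated. Rpl22l1 had 3.71, 3.42, 3.79 and 3.75 in FFPE, against 4.82, 4.53, 4.21 and 5.37 in frozen tissue, and the fold change was -1.07 ± 0.34 (adjusted p = 0.21). The 4 FFPE values of Rpl22l1 lay within 0.4 of each other, and frozen liver was its highest profile. Rpl28 had 4.77, 4.75, 4.73 and 3.49 in FFPE, against 4.97, 5.14, 4.98 and 5.44 in frozen tissue, and FFPE liver lay apart from the other FFPE profiles.

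The lowest fold change was that of Rpl39, which encodes a small protein of the exit tunnel, at -1.78 ± 0.59 (adjusted p = 0.24). Its values rest on few reads: 6, 5, 2 and 1 in FFPE brain, heart, kidney and liver, against 16, 19, 10 and 26 in the frozen profiles. In liver the ratio of FFPE to frozen was 0.077 (95% exact interval 0.002 to 0.472, counting error only). In 7 genes the fold change was above 0, and none of them passed the test. The highest was that of Rps27rt at 0.63 ± 0.72, with 5, 7, 2 and 3 reads in FFPE and 1, 9, 8 and 2 in frozen brain, heart, kidney and liver. Rpl29, of the large subunit, had 4.72, 5.00, 5.01 and 4.46 in FFPE, against 4.34, 4.57, 4.04 and 4.57 in frozen tissue, and was higher in FFPE in brain, heart and kidney (fold change 0.42 ± 0.30, adjusted p = 0.71). Rpl22 stood at 0.25 ± 0.30, Rpl11 at 0.22 ± 0.29 and Rps7 at 0.10 ± 0.26.

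Within organs the difference was not even. The median of FFPE minus frozen over the 87 genes was -0.26 in brain, -0.62 in heart and -0.92 in liver, and 0.062 in kidney, against -0.02 to 0.01 over all genes tested. In liver FFPE was lower in 81 of the 87 genes, where it was lower in 50.9% of all genes. The counts were 75 genes in heart (49.5% of all genes), 61 genes in brain (50.4%) and 35 genes in kidney (50.1%). In liver the hepatocyte markers moved with it: all 6 were lower in FFPE, with a median of -2.51. In heart all 6 cardiomyocyte markers were lower in FFPE, with a median of -1.04. In kidney all 6 proximal tubule markers were lower in FFPE, with a median of -0.46, while 35 of the 87 ribosomal protein genes were, and in brain 4 of 6 neuronal markers were lower, with a median of -0.17. The part of the markers, and of depth, which was lowest in FFPE liver and FFPE heart, in the ribosomal protein result was not tested.

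**Figure D2:**
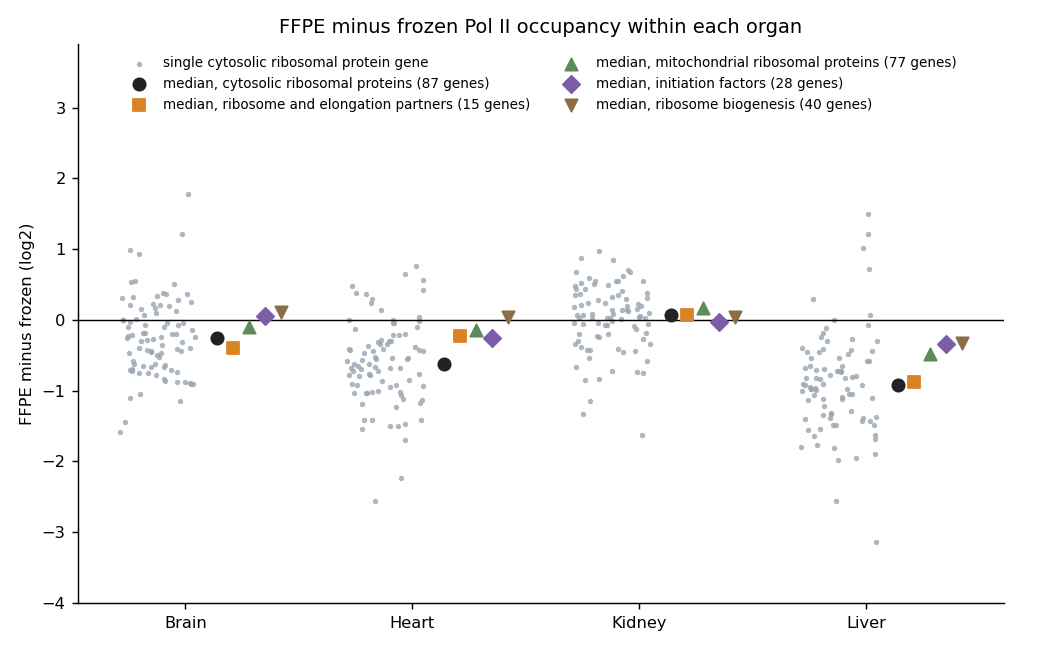
FFPE minus frozen log2 value (y axis) within each organ (x axis). Grey points are the 87 ribosomal protein genes, the black circle is their median (-0.26 in brain, -0.62 in heart, 0.062 in kidney, -0.92 in liver), and coloured symbols are medians of other gene lists, which stand nearer 0 than the black circle in heart and liver.

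The difference between organs in the FFPE effect was tested with limma on the 4 FFPE minus frozen values, 1 organ against the other 3. None of the 87 genes was called in any of the 4 organs; 0.531% of all genes were called for liver and 0.0% for brain, heart and kidney. At an unadjusted p under 0.05, the difference was lower in liver in 19 genes (6.78% of all genes) and higher in kidney in 8 (1.59%), lower in heart in 6 (3.0%) and past that p in brain in 0 (1.48%). The smallest adjusted p was that of Rpl23 in liver, a gene named after its value was seen, whose protein lies on the face of the large subunit that meets the small one. Rpl23 had 4.53 in FFPE liver and 6.50 in frozen liver, against 5.60 in FFPE kidney and 5.12 in frozen kidney, and its FFPE effect in liver was -1.91 ± 0.48 relative to the other organs (adjusted p = 0.060). With reads added in proportion to depth, 1 gene was called, for liver, where 0.613% of all genes were called. Across the 87 genes, FFPE minus frozen values of any pair of organs had Spearman's rho between 0.03 and 0.26, a description over genes that share the libraries' depth.

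The large and small subunit genes lay together. The median FFPE fold change was -0.46 for the 43 large subunit genes, 39 of them below 0, and -0.42 for the 31 small subunit genes, 30 of them below 0. In liver, FFPE was lower in 42 of 43 and in 30 of 31, with a median of -0.98 in both. Genes with a small nucleolar RNA inside (30) had a median fold change of -0.42, and those without (57) of -0.44. In liver the medians of FFPE minus frozen were -1.11 (30 of 30 lower in FFPE) and -0.82 (51 of 57). They were -0.26 and -0.24 in brain, -0.59 and -0.67 in heart and 0.14 and 0.03 in kidney.

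The stalk genes encode the proteins that recruit the elongation GTPases, with Rplp1 and Rplp2 bound as dimers to Rplp0. Rplp0 had 5.14, 5.35, 5.85 and 5.61 in FFPE brain, heart, kidney and liver, against 6.29, 6.28, 5.61 and 6.26 in the frozen profiles. Frozen kidney stood apart from the other frozen profiles, which lay between 6.26 and 6.29, and the fold change was -0.62 ± 0.24 (adjusted p = 0.35). Rplp1 had 3.91, 5.06, 4.34 and 4.53 in FFPE, against 5.49, 5.75, 4.57 and 5.47 in frozen tissue, lower in FFPE in all 4 organs (-0.87 ± 0.28, adjusted p = 0.22). Rplp2 had 4.67, 5.21, 4.69 and 3.86 in FFPE, against 4.30, 5.34, 4.37 and 5.29 in frozen tissue. Its groups overlapped, and its profiles were farther apart in liver than in the other organs (fold change -0.22 ± 0.31).

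Rpl5 and Rpl11 encode the proteins that carry the 5S RNA into the ribosome and bind Mdm2 when assembly fails. Rpl5 was lower in FFPE in all 4 organs (-0.40 ± 0.24, adjusted p = 0.67). Rpl11 had 4.17, 5.16, 4.69 and 4.88 in FFPE brain, heart, kidney and liver, against 4.10, 4.40, 4.66 and 4.89 in frozen tissue, so its profiles differed by under 0.1 in 3 organs and by 0.76 in heart. Rps27a, which is made as a fusion with ubiquitin, had a fold change of -0.46 ± 0.26, and Rpsa, the ribosomal protein also known as the laminin receptor, of -0.42 ± 0.25. Rps27a overlaps Clhc1, and Rpsa overlaps Gm5922, in the annotation.

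Between organs the question is where the ribosomal protein genes carry more Pol II. Their medians lay below 0 in brain and kidney and above 0 in heart and liver, by small amounts, and 2 of the 87 were called in any organ. The kidney and liver directions each rest on 1 profile: without frozen kidney the median was 0.12 in kidney, and without frozen liver it was -0.03 in liver. The median fold change against the mean of the other organs was -0.28 in brain (68 of 87 below 0), 0.26 in heart (66 above 0), -0.24 in kidney (67 below 0) and 0.27 in liver (70 above 0). All genes tested had medians between -0.02 and 0.01, with 49.6% below 0 in brain, 49.8% above 0 in heart, 50.2% below 0 in kidney and 48.4% above 0 in liver. limma called 0 in brain, where 7.46% of all genes were called, 1 in heart (5.24%), 0 in kidney (1.38%) and 1 in liver (7.91%). At an unadjusted p under 0.05, 6 genes were lower in brain, 14 were higher and 1 lower in heart, 5 lower and 1 higher in kidney, and 7 higher and 1 lower in liver. All genes gave 10.3% lower in brain, 9.01% higher and 9.04% lower in heart, 5.55% lower and 5.09% higher in kidney, and 9.38% higher and 9.93% lower in liver at that p. With voom weights there were 5 calls in liver (10.3% of all genes), 2 in heart (5.73%), 1 in kidney (2.59%) and 0 in brain (10.0%). Single profiles moved these counts: without FFPE liver 8 genes were called in liver (10.7% of all genes), 3 genes in brain (12.1%), 2 in heart (8.17%) and 1 in kidney (3.32%), and without frozen liver 9 in heart (8.54%), 1 in brain (8.76%) and 1 in liver (2.9%). These counts of members were near or below the share of all genes called in the same setting, apart from the heart count without frozen liver, at 10.3% of the 87. The heart call was absent without FFPE brain, where 3.08% of all genes were called. No member was called in liver without FFPE brain (5.71% of all genes) or without frozen brain (4.79%). The same held in liver without FFPE heart (6.18%) and without frozen kidney (5.17%).

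**Figure D3:**
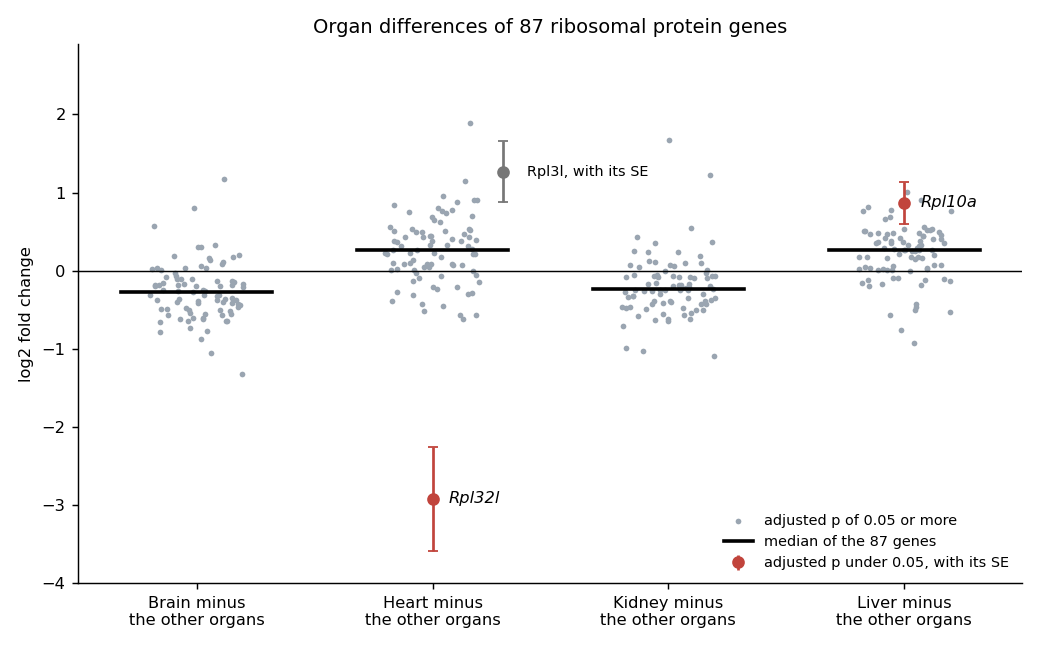
log2 fold change of each of the 87 genes (points) in 1 organ against the mean of the other 3 (x axis), 2 against 6 profiles. Black bars are medians (-0.28 in brain, 0.26 in heart, -0.24 in kidney, 0.27 in liver), red points with SE are the called genes Rpl32l in heart and Rpl10a in liver, and the large grey point is Rpl3l, which was not called.

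Rpl10a, which encodes the protein of the L1 stalk, was the gene called in liver. It had 5.87 in FFPE liver and 6.98 in frozen liver, against 4.90, 5.39 and 5.47 in FFPE brain, heart and kidney and 5.73, 6.42 and 5.45 in frozen brain, heart and kidney. Liver was the highest organ within each preservation, but FFPE liver was below frozen heart. The fold change was 0.87 ± 0.26 (adjusted p = 0.045), and it lost the call under 9 of 16 alternatives, with values between 0.62 and 0.93 in those. Rps27, a zinc-binding small subunit protein, had 5.87 in FFPE liver and 6.45 in frozen liver, against 5.06, 5.52 and 5.49 in FFPE and 5.49, 5.96 and 5.46 in frozen brain, heart and kidney (0.66 ± 0.25, adjusted p = 0.12).

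The medians of liver and of kidney against the other organs lay farther from 0 within frozen than within FFPE tissue. The median of liver minus the other organs was -0.03 within FFPE and 0.57 within frozen tissue, and that of kidney minus the others was 0.12 within FFPE and -0.58 within frozen tissue. For brain the medians were -0.15 and -0.37, and for heart 0.21 and 0.36. The FFPE and frozen values share no profile. Between them, Pearson's r across the 87 genes was -0.02 for liver, 0.25 for kidney, 0.26 for brain and 0.49 for heart. Over all genes tested it was 0.27, 0.14, 0.38 and 0.26 in the same order. Spearman's rho across the 87 genes was 0.04, 0.17, 0.24 and 0.33 in that order. Among the FFPE profiles heart was the highest for 37 genes, kidney for 27, liver for 14 and brain for 9, where all genes gave 29.0%, 22.9%, 24.5% and 23.6%. Among the frozen profiles liver was the highest for 53 genes, heart for 29, brain for 3 and kidney for 2, where all genes gave 28.1%, 24.5%, 25.3% and 22.1%. The same organ was highest in both for 31 genes (35.6%), where it was for 40.9% of all genes.

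**Figure D4:**
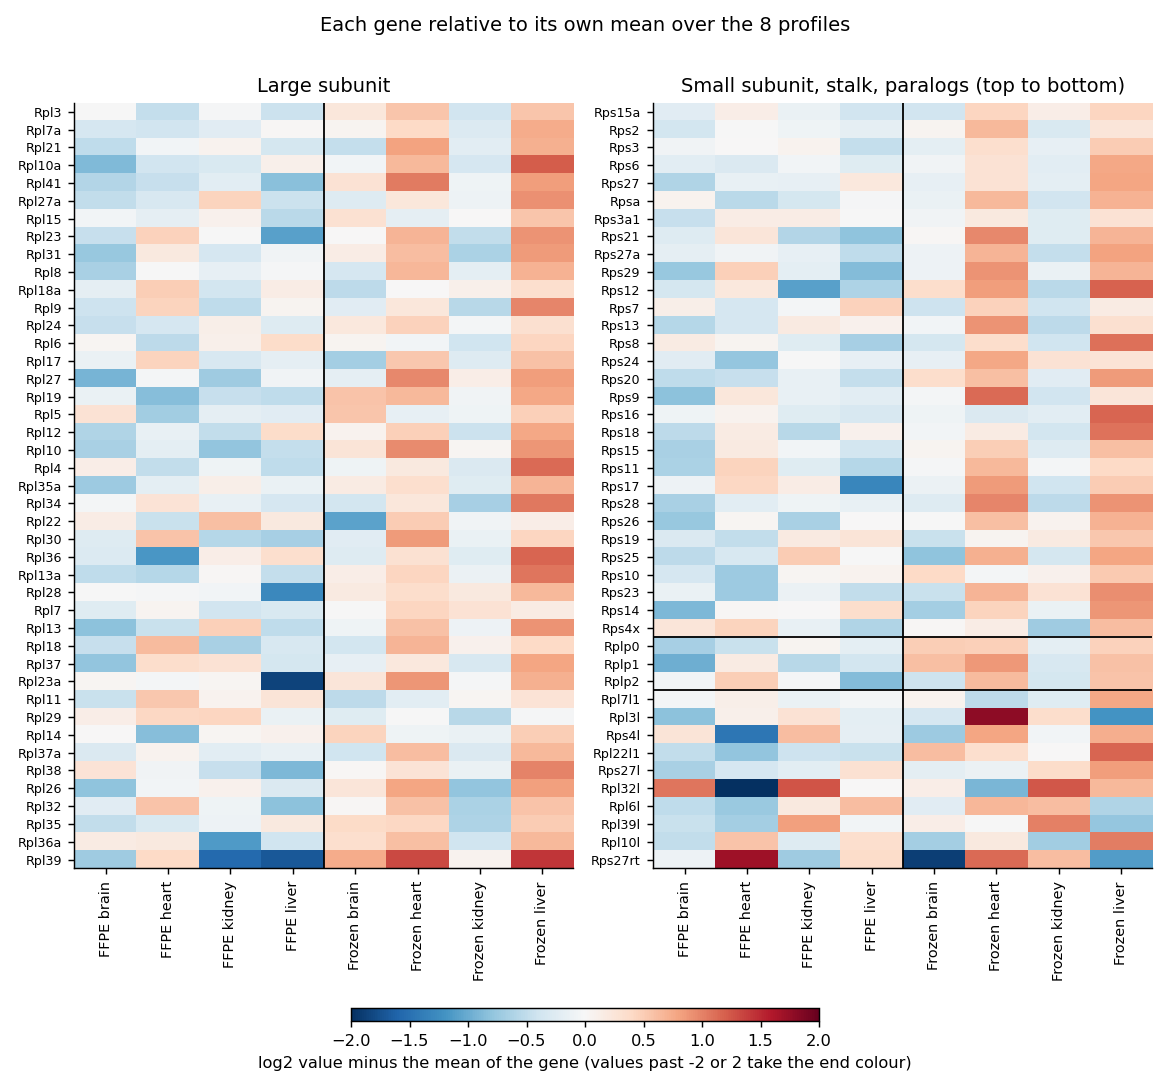
Each row is 1 of 86 of the 87 genes, by class and by falling mean level, and each column 1 profile, with FFPE left of the black line and frozen right of it. Colour is the log2 value minus the gene's mean over the 8 profiles: frozen heart and frozen liver are red in most rows, and 51 of the 87 genes had their highest value in frozen liver (18.6% of all genes) and 25 in frozen heart (13.0% of all genes).

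The paralogs did not move as a block. Rpl3l replaces Rpl3 in ribosomes of striated muscle, and it had 4.88 in FFPE heart and 6.58 in frozen heart, against 3.96, 5.07 and 4.59 in FFPE brain, kidney and liver and 4.45, 5.14 and 3.58 in frozen brain, kidney and liver. Frozen heart, with 142 reads, stood above every other profile, whereas FFPE heart, with 23 reads, was below FFPE kidney. The fold change in heart was 1.26 ± 0.39 (adjusted p = 0.061). It was 0.34 without frozen heart and not called. It was called under 6 of the alternatives, among them voom weights (1.54, adjusted p = 0.0018), without FFPE heart (2.19, adjusted p = 0.033), without FFPE liver (1.56, adjusted p = 0.0014) and without frozen liver (0.97, adjusted p = 0.048). Within heart the read ratio of FFPE to frozen was 0.303 (95% exact interval 0.186 to 0.473, counting error only) for Rpl3l. In liver it was 2.01 (1.06 to 3.81). Rpl3 itself, which has 3 small nucleolar RNAs inside, had 5.74 in FFPE heart and 6.77 in frozen heart and did not differ in heart from the other organs beyond its error (0.05 ± 0.26). Per kilobase, Rpl3l reached 11.4 RPKM in frozen heart and 1.41 in frozen liver, and Rpl3 ranged from 9.37 in FFPE heart to 19.3 in frozen heart.

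**Figure D5:**
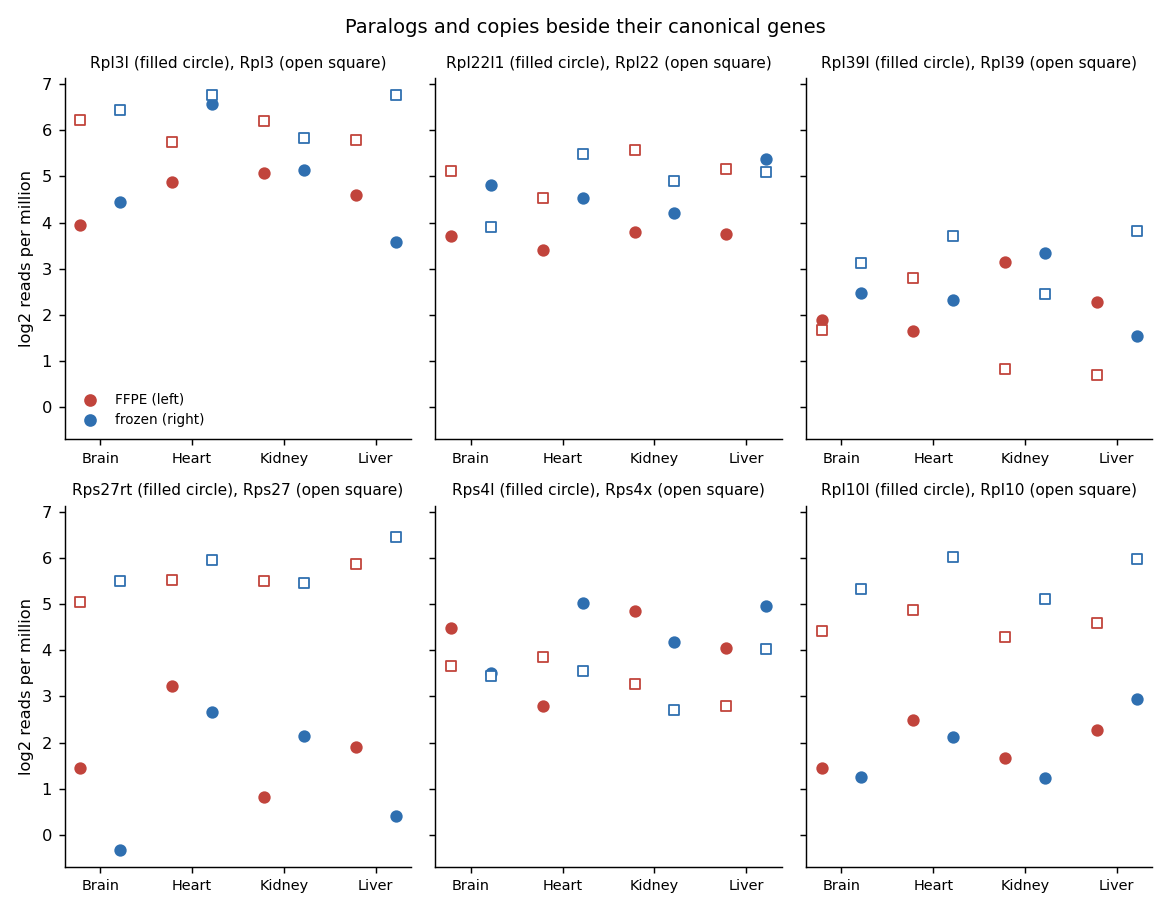
Deposited log2 value (y axis) of 6 paralogs or copies (filled circles) and their canonical genes (open squares) in the 4 organs (x axis), FFPE in red left of frozen in blue. Rpl3l comes nearest to Rpl3 in frozen heart (6.58 and 6.77), and Rps27rt lies below Rps27 in all 8 profiles.

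Rpl32l was the gene called in heart, and it lies whole inside Map7, a gene for a microtubule-associated protein. It had 0 reads in FFPE heart and 5 in frozen heart, against 29, 23 and 6 in FFPE brain, kidney and liver and 14, 31 and 20 in frozen brain, kidney and liver. The fold change was -2.92 ± 0.66 (adjusted p = 0.0094). Its size depends on the 0.5 reads added to the count of 0, which allows up to 3 reads (log2 2.14 in FFPE heart). Without FFPE heart it was -1.59 and not called, and the call was also lost with voom weights (-2.65, adjusted p = 0.068) and without FFPE brain (-2.59, adjusted p = 0.056). Map7 was also lower in heart, with 4.94 in FFPE heart and 4.45 in frozen heart, against 5.73 to 6.41 in the other 6 profiles (-1.45 ± 0.25, adjusted p = 7.8e-04). Reads of Rpl32l and Map7 cannot be separated in this table. Rps4l, a copy inside Tmtc1, had 5 reads in FFPE heart and 48 in frozen heart, and Tmtc1 was higher in heart (1.11 ± 0.24, adjusted p = 0.0067) while Rps4l was not called (-0.43 ± 0.49). Rps27rt lies inside Osbpl10, which was not called in any of the 5 comparisons.

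On the log2 scale, which is not corrected for length, Rpl22l1 was below its paralog Rpl22 in every FFPE profile and in frozen heart and kidney. It was above Rpl22 in frozen brain (4.82 against 3.91) and frozen liver (5.37 against 5.10). Per kilobase of span, Rpl22l1 was above Rpl22 in every profile, with 7.03 against 4.92 RPKM in FFPE kidney and 21.4 against 3.53 in frozen liver. Their spans are 1917 and 9647 bases. On the log2 scale, Rpl39l was above the X-linked Rpl39 in both kidney profiles, FFPE brain and FFPE liver. It was below Rpl39 in both heart profiles, frozen brain and frozen liver, so the liver profiles differed in direction. In FFPE brain Rpl39l had 7 reads and Rpl39 had 6. Per kilobase of span the order turned in that profile alone, with Rpl39l at 0.73 and Rpl39 at 1.09 RPKM. Rpl39 had 2 reads in FFPE kidney and 1 in FFPE liver. Rpl39l had 4 reads in FFPE liver and 5 in frozen liver, and 12 in FFPE kidney and 19 in frozen kidney. Rpl10l, known from testis, had between 4 and 14 reads in every profile. Rpl7l1, a nucleolar paralog of Rpl7, was the highest of the 87 in frozen liver at 7.12. It had 6.31, 6.47, 6.21 and 6.30 in FFPE brain, heart, kidney and liver, within 0.3 of each other (FFPE fold change -0.04 ± 0.22). Rpl7 was lower in FFPE in all 4 organs, by 0.24 in brain and 0.66 in kidney at its ends (-0.44 ± 0.27, adjusted p = 0.67). Rps27l had between 8 and 45 reads, with its highest value of 4.60 in frozen liver.

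The spread of the 87 genes across the 8 profiles lay between those of mitochondrial ribosomal protein genes and of all genes. The median SD of the log2 values was 0.53, against 0.60 for all genes tested and 0.43 for 77 mitochondrial ribosomal protein genes. Taken within a preservation, it was 0.39 for FFPE and 0.52 for frozen tissue. The steadiest were Rps3a1 (SD 0.25), Rpl7 (0.29) and Rps3 (0.31), all of them with 20 reads or more in every profile, and the least steady were Rpl32l (1.58), Rpl39 (1.21) and Rps27rt (1.19), each with 2 reads or fewer in some profile. The 4 X-linked genes, Rpl10, Rpl36a, Rpl39 and Rps4x, all had an FFPE fold change below 0 (median -0.83), but Rps4x stood at -0.04 ± 0.45.

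The other genes of translation lay nearer to 0 in FFPE against frozen tissue, apart from a list of ribosome and elongation partners. The pyrimidine run was not counted separately in these partners. For 15 of these partners, among them the elongation factors Eef1a1 and Eef2 and the ribosomal scaffold Rack1, the median fold change was -0.40, with 14 of 15 below 0 and 0 called. In liver they stood at -0.87, with 15 of 15 lower in FFPE, and the other lists were also below 0 there: initiation factors at -0.33 (23 of 28), ribosome biogenesis genes at -0.32 (28 of 40) and mitochondrial ribosomal protein genes at -0.49 (60 of 77). The 28 initiation factors had a median of -0.08 (18 below 0), the 40 ribosome biogenesis genes of -0.04 (22 below 0), and the 77 mitochondrial ribosomal protein genes of -0.14 (60 below 0), with 0 called in each. Against the other organs or between organs in the FFPE effect, 4 genes of these lists were called. Of all genes, 7.46% were called in brain, 5.24% in heart, 7.91% in liver and 0.531% for the FFPE effect in liver. The calls in brain and in liver were 1 each of 40 ribosome biogenesis genes. The call in heart was 1 of 77 mitochondrial ribosomal protein genes. These were below the shares of all genes called in brain, liver and heart. Eif1, which guards start codon choice, had 6.13 in FFPE liver and 8.11 in frozen liver, and its FFPE effect was lower in liver than in the other organs by -1.58 ± 0.39 (adjusted p = 0.0497). Utp3, of the small subunit processome, was lower in brain (-1.04 ± 0.31, adjusted p = 0.041), Ubtf, a factor of RNA polymerase I, lower in liver (-0.72 ± 0.22, adjusted p = 0.046), and Mrps23 higher in heart (1.23 ± 0.36, adjusted p = 0.049).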

How the data were processed

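Pol II ChIP-seq was read from 1 table of 27179 genes in 8 profiles. Per the submitters' processing notes, reads were handled with Bowtie2, featureCounts and limma on mm10; versions and the counting strand were not given in the sources used here. In the deposited table, the authors' log2 values have 0.5 reads added and are divided by a scaled total. Whole reads were recovered from them, with 100% of values whole within a relative tolerance of 1e-06, and totals ranged from 864816 to 2178329.

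Testing was limited to the 26758 genes that reached a log2 value of 0 in 2 or more profiles, all 87 members among them. The model in limma 3.58.1 (R 4.3.3) had organ and preservation as terms and a variance trend. It left 3 residual degrees of freedom, to which limma's prior over all genes added 19.4. SEs and p-values of a gene therefore also draw on the spread of other genes between these profiles. Benjamini-Hochberg adjustment was over all genes, with a threshold of 0.05. How the FFPE effect differs between organs was fitted on the 4 FFPE minus frozen values, where the lone organ is assumed to vary like the others. The scripts were tested on simulated data. A single organ has 1 profile a side and no test, and exact binomial intervals (95%) cover counting error only.

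The rule for the members uses symbols alone, but this gene set and the lists were chosen with earlier results of these data known. Named genes are those called, the 5 lowest and 5 highest FFPE fold changes, the paralogs with their canonical genes, the stalk genes, Rpsa, Rps27a, Rpl5, Rpl11, the 5 highest and 5 lowest levels per kilobase, and the 3 highest and 3 lowest SDs; 1 gene that this rule names is not reported here. Gene positions (GRCm38.p6, the build called mm10) and promoters came from RefSeq tables; 25271 genes (93.0%) and all 87 members were matched to positions. Alternatives were other normalizations, voom weights, other additions of reads, other filters and leaving out profiles. The totals without mitochondrial genes were plain sums, without the deposited scaling. Input libraries were not analysed here.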

Additional observations from a re-analysis of the deposited data

Results flagged for a closer look

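In 102 sets of 4 profiles (values of the 32 named genes and summed shares), 3 had a profile far from the other 3 by Dixon's test at its 95% level, where chance gives about 1 in 20. Rpl11 differed between FFPE and frozen tissue by 0.76 in heart and by under 0.1 in the other organs. Rplp0 stood at 5.61 in frozen kidney, with the other frozen profiles between 6.26 and 6.29. The share of reads on the 87 genes was 0.237% in FFPE heart, the profile with the highest mitochondrial share, and between 0.259% and 0.262% in the other FFPE profiles.

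The median of FFPE minus frozen over the 87 genes was above 0 in kidney (0.062) and below 0 in liver (-0.92); the difference between these organs was not tested for the median.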

How the results depend on the processing

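The median FFPE fold change of the 87 genes stayed below 0 under every alternative run, between -0.61 (scaled to silent olfactory and vomeronasal receptors) and -0.30 (mitochondrial genes left out of the totals), and between -0.60 and -0.30 with 1 profile left out. Scaling to silent receptors also moved the median of all genes, by -0.53 in heart, -0.50 in liver and 0.34 in kidney, and with it the members' medians to -1.16 in heart, -1.40 in liver and 0.41 in kidney; relative to all genes the first 2 were -0.63 and -0.90. With mitochondrial genes left out the liver median was -0.56, where that of all genes was 0.33. Across the 4 organs the median of -0.30 stood against 0.11 over all genes. This alternative divided by plain totals, so it also dropped the deposited scaling factors (1.08 in FFPE liver and 0.862 in frozen liver). Its changes cannot be credited to mitochondrial reads alone. Against the other organs, the members' median turned to 0.12 in kidney without frozen kidney and to -0.03 in liver without frozen liver. Genes called in FFPE against frozen numbered 2 with voom weights (1.18% of all genes) and 1 with quantile normalization (0.62%). They numbered 2 with reads added in proportion to depth (0.676%) and 1 with a log2 value of at least 3 asked in 2 profiles (0.625%). All of them were Rpl10 or Rpl41. With a profile left out there were 0 to 1 (0.0861% to 0.415% of all genes). In heart 2 were called with voom weights (5.73% of all genes) and 2 when scaled to silent receptors (3.52%). With a profile of another organ left out there were 0 to 9 (3.08% to 8.54%). In kidney 1 was called with voom weights (2.59% of all genes) and 1 with quantile normalization (2.53%). With a profile of another organ left out there were 0 to 1 (0.824% to 3.32%). In liver 5 were called with voom weights and 0 with quantile normalization, 0 when scaled to silent receptors and 0 with mitochondrial genes left out, and 0 to 8 with a profile left out. The matching shares of all genes called in liver were 10.3% with voom weights and 8.13% with quantile normalization. They were 4.19% when scaled to silent receptors and 8.62% with mitochondrial genes left out. The count of 8 came without FFPE liver, which leaves 1 liver profile. With a profile of another organ left out there were 0 to 1 in liver (4.79% to 6.55% of all genes). In brain 0 to 3 were called with a profile of another organ left out (4.88% to 12.1% of all genes). The difference between organs in the FFPE effect gave 1 call with reads added in proportion to depth, for liver (0.613% of all genes). Beyond the alternatives' own construction, the cause of these changes was not tested.

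Of 826 values of named genes under alternatives, 744 kept direction and side of the threshold, 17 gained a call, 13 lost it and 52 changed sign, none of which was called. Signs changed for FFPE against frozen in Rpl10l (-0.012 with quantile normalization, -0.10 scaled to silent receptors, -0.24 without FFPE heart and FFPE kidney; -0.037 to 0.34 with a profile left out), Rpl32l (0.050 with voom weights, 0.14 without FFPE heart and FFPE kidney; -1.06 to 0.10), Rpl7l1 (0.082 with quantile normalization, 0.073 with mitochondrial genes left out; -0.27 to 0.21) and Rps7 (-0.082 scaled to silent receptors; -0.043 to 0.40). Without FFPE heart and FFPE kidney they changed in Rpl39l (0.069), Rpl3l (0.26; -0.75 to 0.15 with a profile left out) and Rps4l (0.040; -0.82 to 0.25). With mitochondrial genes left out they changed in Rps3a1 (0.034; -0.24 to 0.020) and Rps4x (0.080; -0.23 to 0.36). With a profile left out alone they changed in Rpl22 (-0.068 to 0.65), Rplp2 (-0.41 to 0.19) and Rps3 (-0.40 to 0.00339). Between organs they changed in Rpl22l1 in brain (-0.10 scaled to silent receptors; -0.0582 to 0.23) and kidney (-0.69 to 0.17), Rpl32l in brain (-0.19 to 1.80) and liver (-0.028 without FFPE heart and FFPE kidney; -0.00157 to 0.88), Rpl10a in heart (-0.018 to 0.37) and kidney (-0.93 to 0.083), and Rps27rt in kidney (0.020 with mitochondrial genes left out, 1.23 without FFPE heart and FFPE kidney; -1.37 to 1.23) and liver (-1.08 to 0.076).

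No paired analysis was possible because the columns carry no replicate number; organ, which pairs an FFPE with a frozen profile, was already a term in the models. The count models planned as alternatives were left out; the recovered reads were used with voom weights. Levels per exon length were not computed, since the reference gives spans only. Voom weights and the totals without mitochondrial genes were not run for the difference between organs in the FFPE effect. At 0 to 5 reads, as for Rpl32l, Rpl39 and Rps27rt in some profiles, fold changes depend on the reads added.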
